A study of Homo sapiens with 2 samples.

Results

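The members are 10 genes whose products set how microtubules grow, shrink and attach: STMN1, MAP4, MAP1B, MAPRE1, CKAP5, TACC3, CLASP1, CLASP2, CLIP1 and TPX2. They were taken by name, as every probe set whose platform annotation gave exactly 1 gene symbol and that symbol was a member. This gave 32 probe sets for the 10 genes, of 41097 single-gene probe sets for 19775 genes on the array. The samples were 2 cultures of CL1-5, a human lung adenocarcinoma line described by the submitters as highly invasive. The first received 0.11 µM analogue 3 for 24 h, a dose the submitters report as its ED50 in this line. This compound is an analogue of the plant product desmosdumotin C that carries iodo, propyl and methoxy groups according to its label. The control received the solvent DMSO for 24 h, which the label gives at 0.05 µg/mL. Total RNA of each culture was hybridised to 1 Affymetrix U133 Plus 2.0 array. There was 1 array a group, so nothing below could be tested across replicates, and p-values are not given.

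Microtubules are polymers of alpha- and beta-tubulin that switch between growth and collapse at their plus ends. Interphase cells hold a long, fairly stable array bound along its length by proteins such as MAP4, with plus ends tracked by end-binding protein 1 (the product of MAPRE1), the CLIP1 product CLIP-170 and the CLASPs. In mitosis that array is replaced by the spindle, which needs nucleation by TPX2, cross-linking by TACC3 and fast polymerisation by the CKAP5 product, chTOG. Stathmin, the product of STMN1, binds free tubulin dimers and destabilises polymers, and is switched off by phosphorylation when cells enter mitosis. The comparison asked which of these transcripts were higher or lower after treatment, and whether spindle proteins differed from those of the interphase array. TPX2, TACC3 and CKAP5 were counted as mitotic, and MAPRE1, CLIP1, CLASP1, CLASP2, MAP4 and MAP1B as interphase. STMN1 was kept apart. The division is a simplification, since chTOG, end-binding protein 1 and the CLASPs work in both.

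Values are intensities on a linear scale in multiples of the array median, because each deposited column has a median of 1. Intensities of different probe sets are not comparable with each other, so differences are taken only within a probe set. Where a gene is called bright, faint or the brightest of a list, this describes signal on the array and not relative abundance. A value of 32 (log2 of 5) was used as a floor: lower values were raised to it before a fold was taken, and a gene counted as measured when its brightest probe set reached it on at least 1 array. Of 19775 genes 5050 were measured, and 4288 of them reached it on both arrays. Where 1 array lay below the floor, the fold is a bound. Such a gene could only differ towards the array that reached the floor. Among 1127 genes with at least 2 probe sets at the floor on both arrays, the standard deviation of 1 probe set's log2 difference was 0.17. For probe sets with a mean level from 8 to 32 it was 0.28 over 1165 genes. This spread is technical and leaves out culture and hybridisation error. The 18 hybridisation spikes differed by between -0.14 and 0.17 on the log2 scale. The labelled cell type was checked against markers. KRT18 (457.9 with analogue 3 and 460.8 with DMSO) and VIM (1868 and 1883) were bright, while EPCAM (0.339 and 0.347) and CDH1 (0.536 and 0.409), defining genes of epithelium, lay below the median of both arrays. The keratin genes KRT7 (2.646 and 1.923) and KRT19 (5.232 and 2.235) lay below the floor on both.

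The mitotic members and STMN1 were higher with analogue 3, and the interphase members had no common direction. STMN1 was 2.90-fold and TPX2 2.44-fold higher, CKAP5 was 1.96-fold higher, and TACC3 was at least 1.55-fold higher. MAPRE1 was 1.48-fold higher, CLIP1 was at least 1.66-fold lower, and MAP4 and MAP1B differed by less than 1.2-fold in their brightest probe sets. CLASP1 and CLASP2 lay below the floor on both arrays. Thus 8 of the 10 members were measured. Of these, 2 were at least 2-fold higher, beside 3.47% of all measured genes, and 0 were at least 2-fold lower, beside 2.67%. At 1.5-fold the count was 4 higher, beside 9.47% of all measured genes, and 1 lower, beside 9.13%. With a lower floor of 8 (log2 of 3) all 10 members were measured and 3 were at least 2-fold higher (STMN1, TPX2 and TACC3), beside 3.74% of 8523 genes, and 0 were at least 2-fold lower, beside 3.92%. In RNA from whole cultures, more cells that express a gene and more RNA per cell cannot be told apart.

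**Figure D1:**
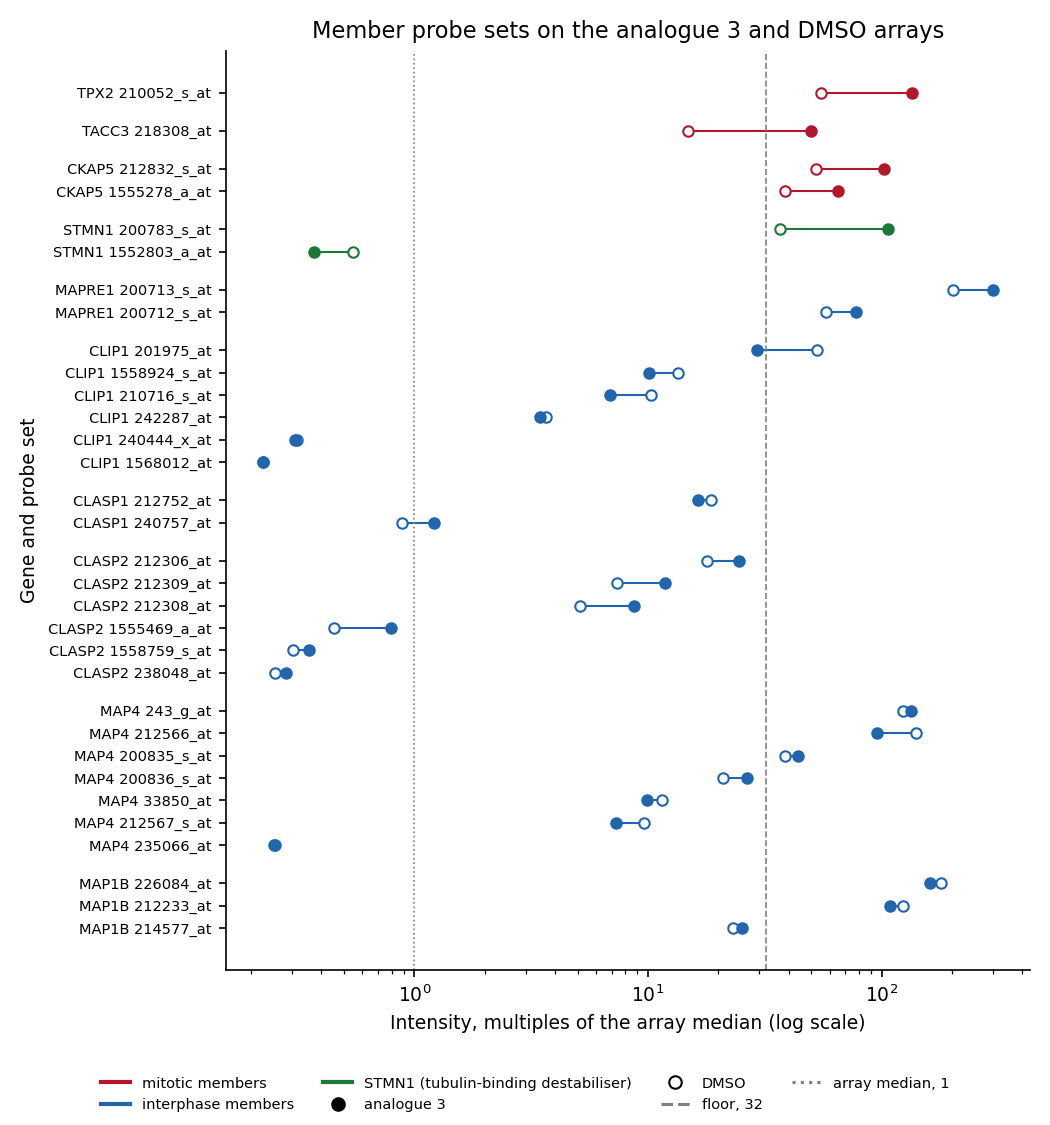
Intensity of each of the 32 member probe sets on the analogue 3 array (filled) and the DMSO array (open), in multiples of the array median on a log axis, with the floor of 32 dashed and the median of 1 dotted. All 4 probe sets of the mitotic members lie to the right with analogue 3, while the 26 probe sets of interphase members go both ways.

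The members also differ in the stretch of DNA before their start. The 250 bases upstream of the annotated start were read from RefSeq (GRCh38.p14), which held 9 of the 10 members and not TPX2. Each gene was read only at the first start listed for it, so words before any other start were not searched. Each window was searched on both strands for a CHR element (TTTGAA or TTCGAA), bound by the MuvB complexes that time late cell cycle genes, for CCAAT, the site of NF-Y, and for an E2F site (TTTGGCGC, TTTCCCGC or TTTCGCGC). Printed here are 3 members that were higher and had an entry (STMN1, CKAP5 and TACC3) and CLIP1, the member that was lower, with matches in capitals.

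STMN1, chr1:25906420-25906669, minus strand: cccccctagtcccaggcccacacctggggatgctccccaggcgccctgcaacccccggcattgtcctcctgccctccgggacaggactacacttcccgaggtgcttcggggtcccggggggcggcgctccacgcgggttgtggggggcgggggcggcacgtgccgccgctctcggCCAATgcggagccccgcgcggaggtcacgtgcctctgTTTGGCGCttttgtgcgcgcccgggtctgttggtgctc

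CKAP5, chr11:46846281-46846530, minus strand: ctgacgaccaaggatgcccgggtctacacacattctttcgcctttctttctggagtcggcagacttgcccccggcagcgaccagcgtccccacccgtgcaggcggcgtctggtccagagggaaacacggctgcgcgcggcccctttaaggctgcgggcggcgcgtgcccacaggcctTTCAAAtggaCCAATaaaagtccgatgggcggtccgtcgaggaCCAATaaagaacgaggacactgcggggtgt

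TACC3, chr4:1720381-1720630, plus strand: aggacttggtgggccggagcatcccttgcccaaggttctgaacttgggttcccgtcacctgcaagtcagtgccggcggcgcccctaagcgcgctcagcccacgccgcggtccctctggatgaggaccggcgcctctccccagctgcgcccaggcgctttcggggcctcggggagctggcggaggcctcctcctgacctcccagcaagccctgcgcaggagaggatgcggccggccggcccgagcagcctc

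CLIP1, chr12:122422670-122422919, minus strand: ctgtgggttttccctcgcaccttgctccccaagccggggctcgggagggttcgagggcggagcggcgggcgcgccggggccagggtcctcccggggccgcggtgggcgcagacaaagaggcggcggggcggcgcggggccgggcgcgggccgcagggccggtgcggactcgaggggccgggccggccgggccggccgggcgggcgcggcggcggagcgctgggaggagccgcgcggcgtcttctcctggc

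The STMN1 window held CCAAT from 75 to 71 bases before the start and the E2F word TTTGGCGC from 38 to 31 bases before it. The CKAP5 window held TTCAAA, which is TTTGAA on the other strand, from 73 to 68 bases before the start, followed by CCAAT at 63 to 59 and again at 30 to 26. Of 27305 such windows in the table, 14.6% held a CHR word, 33.0% held CCAAT, 10.0% held CCAAT at 2 or more places and 2.38% held an E2F word. The TACC3 and CLIP1 windows held none of these words, nor did those of MAP1B, CLASP1 and CLASP2. MAPRE1 held CCAAT at 1 place and MAP4 at 2. Of the 9 windows, CKAP5 alone held a CHR word and STMN1 alone an E2F word. A match is a run of letters in the reference and not a measured binding site, and of the 3 printed members that were higher, STMN1 and CKAP5 shared CCAAT while TACC3 held no match. The share of G and C was 73.2% for STMN1, 62.8% for CKAP5, 71.6% for TACC3 and 82.8% for CLIP1, against a median of 58.0% over all windows. Among the 9 members it ran from 56.0% (CLASP1) to 82.8%.

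**Figure D2:**
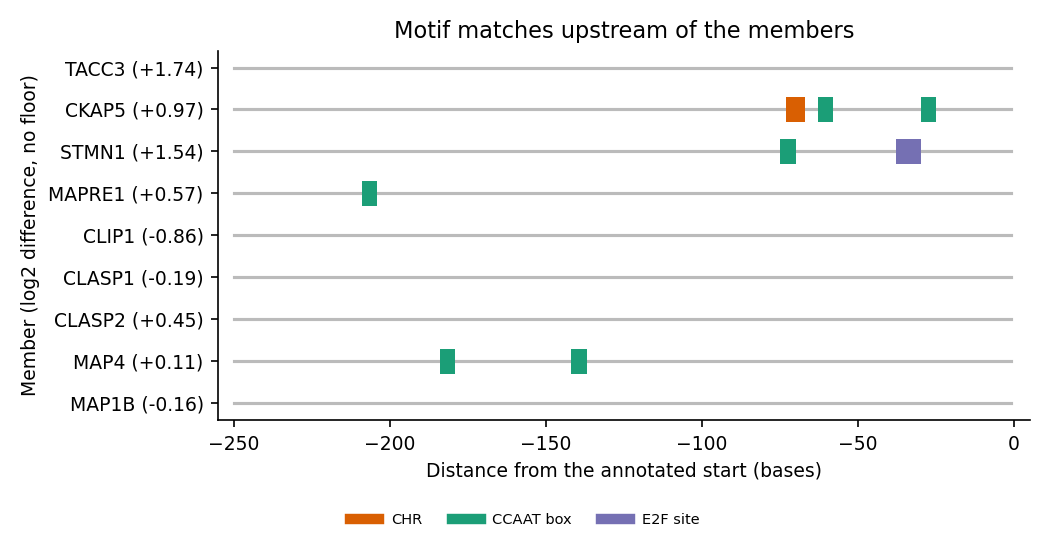
Matches to the CHR, CCAAT and E2F words in the 250 bases before the annotated start of 9 members, with distance from the start in bases and, beside each name, the log2 difference between the arrays. Matches near the start are seen in CKAP5 and STMN1, and those of MAP4 and MAPRE1 lie farther upstream.

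Among the mitotic members, TPX2 activates and targets the kinase Aurora A and nucleates microtubules around chromosomes once Ran releases it from importins. Its single probe set (210052_s_at) read 134.4 with analogue 3 and 55.0 with DMSO, both above the floor. The log2 difference of 1.29 was the 72nd highest of the 4288 genes measured on both arrays. TPX2 has no second probe set here, so that value has no technical check of its own.

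TACC3, a substrate of Aurora A that bridges spindle microtubules together with clathrin and chTOG, was also read by 1 probe set (218308_at). It gave 49.8 with analogue 3 and 14.9 with DMSO. The DMSO value lay below the floor, so the bound was at least 1.55-fold, and the unfloored ratio was 3.34 (log2 1.74), the largest unfloored difference among the members' brightest probe sets. Whether TACC3 passed 2-fold therefore turned on the floor.

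CKAP5 encodes chTOG, the polymerase that adds tubulin at plus ends and is recruited to the spindle by TACC3. Its brighter probe set (212832_s_at) read 102.8 against 52.4, a log2 difference of 0.97 that lay just under 2-fold. The other (1555278_a_at) read 65.4 against 38.6, a log2 difference of 0.76, or 1.69-fold. Both lay above the floor on both arrays and had the same direction, with a gap of about the spread of 1 probe set. CKAP5 ranked 152nd highest of the 4288 genes.

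STMN1 read 106.9 with analogue 3 and 36.8 with DMSO in its bright probe set (200783_s_at). The log2 difference of 1.54 was the 27th highest of the 4288 genes and the highest of any member measured on both arrays. The other single-gene probe set (1552803_a_at) read 0.371 and 0.547, below the median of both arrays and far below the floor, and so gives no usable difference. The DMSO value of the bright probe set lay close above the floor.

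**Figure D3:**
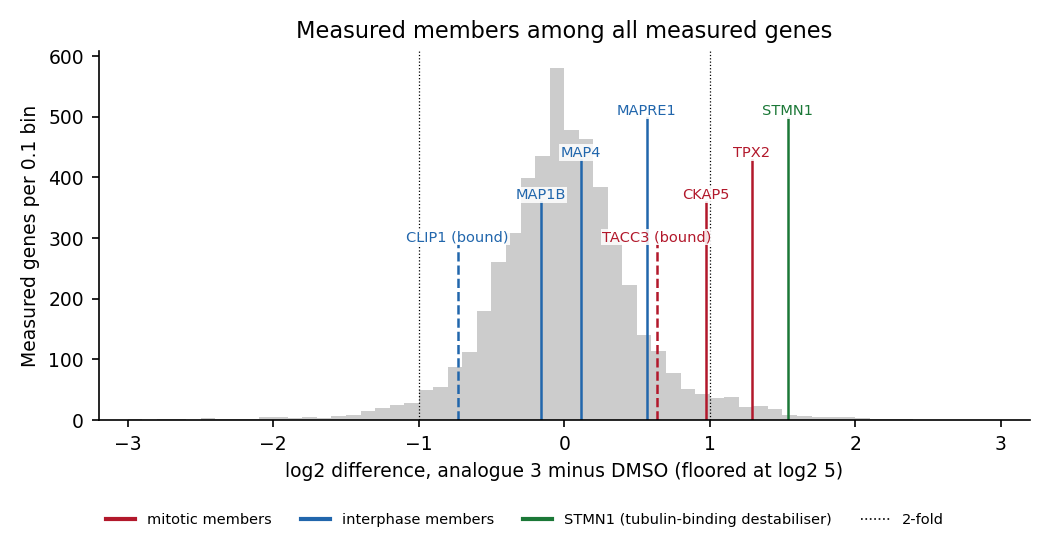
Log2 differences between analogue 3 and DMSO, floored at log2 of 5, for the 5050 measured genes (grey, genes per bin of 0.1) and the 8 measured members (lines, dashed where the value is a bound). STMN1 at 1.54 and TPX2 at 1.29 lie beyond the dotted 2-fold line, CKAP5 at 0.97 lies just inside it, and MAP4 and MAP1B lie near the middle.

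The interphase plus-end trackers went different ways. MAPRE1, whose product recruits most other trackers to growing ends, read 300.6 with analogue 3 and 202.8 with DMSO (200713_s_at). Its second probe set (200712_s_at) read 78.1 and 58.0. The log2 differences were 0.57 and 0.43, both higher with analogue 3, under 1.5-fold and larger than the spread of 1 probe set.

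CLIP1 encodes CLIP-170, which rides on growing ends through tyrosinated tubulin and end-binding protein 1. It was the only measured member more than 1.5-fold lower, at 29.3 with analogue 3 and 53.2 with DMSO (201975_at), a bound of at least 1.66-fold and an unfloored ratio of 1.81. Its 5 other probe sets lay below the floor on both arrays. Of all 6, 5 were lower with analogue 3 and 1 read 0.224 on both arrays. The brightest of the 5 others read 10.1 against 13.4, and the next 6.90 against 10.4. The probe sets 242287_at and 240444_x_at, counted as lower, differed by only -0.08 and -0.04 on the log2 scale and give no direction.

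CLASP1 and CLASP2 encode rescue factors that stop shrinking microtubules from collapsing. The CLASP1 probe set with the higher signal (212752_at) read 16.4 with analogue 3 and 18.7 with DMSO, an unfloored log2 difference of -0.19, within the 0.28 spread of 1 probe set at such levels. Its other probe set read 1.22 and 0.882, near the array median, a difference of 0.46. CLASP2 (212306_at) read 24.5 against 17.9, an unfloored difference of 0.45. The next CLASP2 probe sets read 11.8 against 7.34 and 8.72 against 5.10, differences of 0.68 and 0.77. All 6 CLASP2 probe sets were higher with analogue 3, but none reached the floor, and 3 of them lay below the array median. No direction is given for CLASP1.

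Of the lattice-binding members, MAP4 is the main structural microtubule-associated protein of non-neuronal cells. Its probe sets disagreed. The brightest (243_g_at) read 133.5 with analogue 3 and 123.3 with DMSO, a log2 difference of 0.11, and another (200835_s_at) read 44.0 and 38.6, a difference of 0.19. The second (212566_at) read 95.7 against 141.1, a difference of -0.56. All 3 lay above the floor on both arrays, and the second stood apart from the other two by more than the usual spread of 1 probe set. Of all 7 MAP4 probe sets, 3 were higher and 4 lower with analogue 3, and no direction is given for the gene.

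MAP1B, a microtubule-associated protein best known from growing axons, read 161.6 with analogue 3 and 180.5 with DMSO (226084_at), and 108.3 against 123.3 in its second probe set (212233_at). The differences of -0.16 and -0.19 were about the size of the spread of 1 probe set. Another (214577_at) lay below the floor at 25.2 and 23.1. Since MAP1B is best known from neurons, neuronal markers were read too. NEFL was the only 1 of 5 at the floor (76.0 and 66.3), SNAP25 read 11.4 and 7.49, and NEFM, SYP and GAP43 lay below 3 on both arrays.

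Set side by side, the 3 mitotic members had a median floored log2 difference of 0.97 and the 4 measured interphase members one of -0.02, a gap of 0.99. The lowest mitotic value (TACC3, a bound at 0.64) lay above the highest interphase value (MAPRE1, 0.57). With the floor of 8 the medians were 1.29 over 3 members and -0.02 over 6, a gap of 1.31. Over the 8 measured members the median was 0.60, against -0.01 over all measured genes, and 6 members lay above 0, where 48.4% of all measured genes did. The 6 include MAP4 at 0.11, whose probe sets disagreed and for which no direction is given. They also include TACC3, which reached the floor only with analogue 3 and so could only lie above 0. CLIP1 reached it only with DMSO and could only lie below 0. STMN1, TPX2 and MAPRE1 were measured only by _s_at probe sets, and with _s_at and _x_at probe sets left out the median was 0.11 over 5 members and 0 were at least 2-fold higher. Members of so small a list are not replicates, and the gap has no test.

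Close relatives of the members were mostly below the floor. In the TACC family, TACC2 read 33.7 with analogue 3 and 58.0 with DMSO, 1.72-fold lower, and TACC1 read 60.9 and 57.4, so only TACC3 of the 3 was higher by over 1.5-fold. The other end-binding genes were faint, with MAPRE2 at 5.03 and 3.63 and MAPRE3 at 2.73 and 3.23. Of the other stathmins, STMN3 read 12.4 and 5.90 and STMN2 0.374 and 0.451. CLIP4, a relative of CLIP1, was at least 2.20-fold lower, at 22.0 against 70.4.

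Other microtubule genes were read in 6 further lists. The spindle list covers proteins of spindle microtubules, among them ones that bundle, crosslink, move or depolymerise them, and the HAUS (augmin) and SKA genes. Of this list, 22 of the 29 genes on the array were measured. Of these, 14 were at least 2-fold higher, beside 3.47% of all measured genes, and 0 at least 2-fold lower, beside 2.67%. Of the same 22, 21 lay above 0, where 48.4% of all measured genes did, with a median of 1.08. KIF11, KIF15, KIFC1, PSRC1, HAUS3 and HAUS7 reached the floor only with analogue 3, so they could only lie above 0. KIF11 and PSRC1 are also among the 14. DLGAP5, which binds spindle microtubules near chromosomes, read 132.6 against 36.5 (3.63-fold), and FAM83D, which anchors casein kinase to the spindle, 169.9 against 49.8 (3.41-fold). KNSTRN, a kinetochore and plus-end protein, was 2.81-fold higher and PRC1, the bundler of the central spindle, 2.78-fold. NUSAP1, another bundler, read 294.2 against 108.2 (2.72-fold), and KIF2C, the microtubule-depolymerising kinesin of centromeres, 183.5 against 84.5 (2.17-fold). HAUS2, an augmin subunit, was the 1 gene below 0, at -0.13, and its other probe set differed by 0.70.

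Partners of the mitotic members went both ways. AURKA, the kinase that TPX2 activates, read 328.2 with analogue 3 and 122.0 with DMSO, 2.69-fold higher, with log2 differences of 1.43 and 1.38 in its 2 probe sets at the floor. CDK1, which drives entry into mitosis, was 2.89-fold higher, and RCC1, the exchange factor for Ran, at least 1.89-fold. KPNA2, an importin that holds TPX2 inactive, was 1.57-fold higher, at 1169 against 745.9, with a log2 difference of 0.65 there and 1.06 in its other probe set. CLTC, the clathrin heavy chain that partners TACC3 on the spindle, read 851.8 and 973.4, a log2 difference of -0.19, and KPNB1, the importin that pairs with KPNA2, differed by -0.09. RAN itself read 1773 and 1305, a difference of 0.44, and differed by -0.35 in its other probe set. Over the 10 measured partners of 11, 2 were at least 2-fold higher, beside 3.47% of all measured genes, and 0 at least 2-fold lower, beside 2.67%, with a median of 0.26.

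The lattice-binding and plus-end lists had no gene at least 2-fold higher, beside 3.47% of all measured genes. At that share, lists this short can hold none. Of 8 measured lattice-binding proteins among 25, 7 lay below 0 and 1 above, where 48.4% of all measured genes lay above. MAP9 and CAMSAP1, among the 7, reached the floor only with DMSO and so could only lie below 0. None of the 8 was at least 2-fold lower, beside 2.67% of all measured genes, and their median was -0.25. CAMSAP2, which guards minus ends, was 1.39-fold lower (37.7 against 52.3), and the spectraplakin gene MACF1 1.26-fold lower (162.0 against 203.8), with 4 further MACF1 probe sets between -0.23 and -0.09. MARK3, a kinase that releases MAPs from microtubules, was 1.22-fold lower, and CAMSAP1 at least 1.22-fold. Of the 7 measured plus-end trackers and dynein adaptors among 15, CLIP4 was the 1 gene at least 2-fold lower, beside the same 2.67%, and the median was 0.17. NDEL1, a dynein adaptor, was 1.49-fold lower. Its partner PAFAH1B1 read 96.1 against 69.7, or 1.38-fold higher, while another PAFAH1B1 probe set gave a log2 difference of -0.77. GAS2L1 was at least 1.31-fold higher.

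Of the 12 stathmin, severing and depolymerising genes on the array, 4 were measured and 1 was at least 2-fold higher, beside 3.47% of all measured genes. FIGNL1, a relative of the severing enzyme fidgetin that is known from DNA repair, was that gene, at least 2.04-fold higher (65.2 against 30.7). The severing genes SPAST and KATNA1 differed by -0.30 and 0.06, and KIF2A, the close relative of KIF2C, by -0.06. The list median was 0.00. KIF2C (2.17-fold higher) was placed in the spindle list and STMN1 (2.90-fold higher) was kept apart, so this median leaves both out. Of 9 measured tubulin cofactors and modifying enzymes among 18, none differed by 2-fold, beside 3.47% of all measured genes higher and 2.67% lower. The median of that list was -0.05. AGTPBP1, a deglutamylase, was 1.30-fold lower and SVBP, the partner of the detyrosinating vasohibins, 1.24-fold lower. TBCC and TTL differed by -0.22 and -0.14. TBCA and TBCB, which handle beta- and alpha-tubulin during folding, differed by 0.07 and -0.02.

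**Figure D4:**
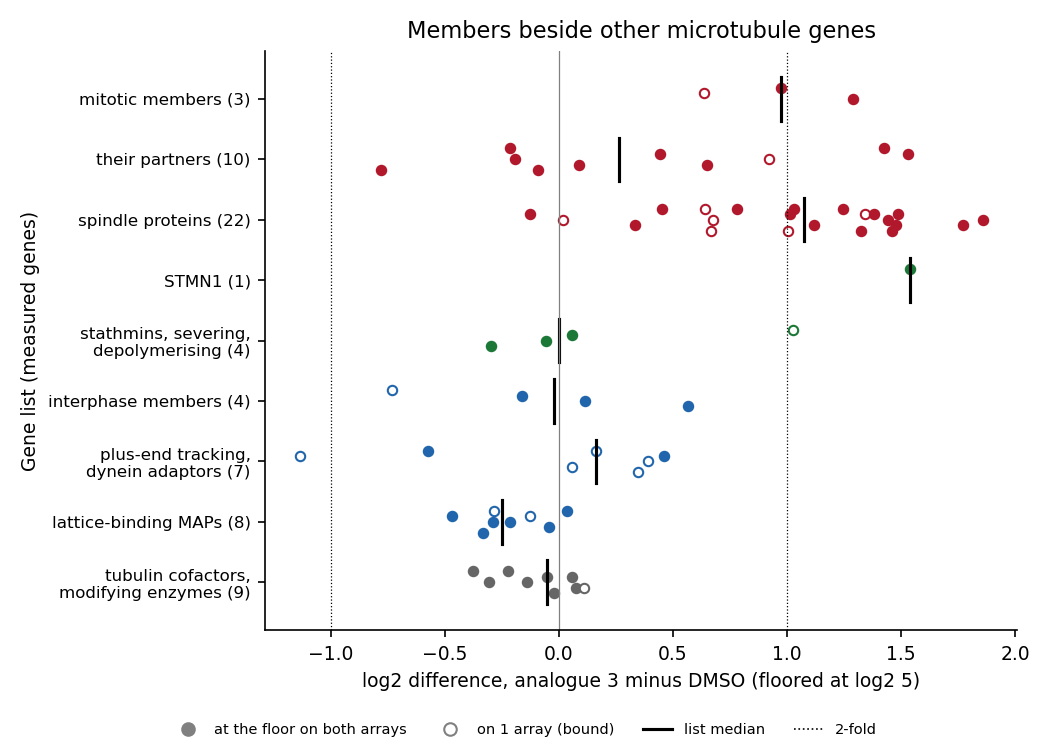
Floored log2 differences, analogue 3 minus DMSO, of the measured genes of each list (number in brackets), with filled points at the floor on both arrays, open points as bounds and black bars as medians. The mitotic members and the 22 spindle genes have medians of 0.97 and 1.08, while the medians of interphase members, plus-end trackers, lattice-binding proteins and tubulin cofactors lie between -0.25 and 0.17. The partners of the mitotic members have a median of 0.26, and the stathmin, severing and depolymerising list, which leaves out STMN1 and KIF2C, 0.00.

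Markers of leukocytes, fibroblasts and endothelium lay below the floor on both arrays, unlike the neuronal NEFL above. All 4 leukocyte markers lay below 1.3, with PTPRC at 0.493 and 0.492. The brightest of 5 fibroblast markers was COL1A1, at 5.50 with analogue 3 and 3.93 with DMSO, and the brightest of 4 endothelial markers was PECAM1, at 15.7 and 11.4, while VWF read 0.376 and 0.379. Of the 7 epithelial and cell line markers, 3 were at the floor, and KRT8 was 1.84-fold higher with analogue 3.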

How the data were processed

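Affymetrix U133 Plus 2.0 intensities of 2 CL1-5 cultures, 1 array a group, were analysed. The intensity values the authors deposited were made with GCRMA, per the submitters' processing notes. Its version is not given in the sources used here. They are linear with a median of 1 in each column, a scaling read from the values. Genes of probe sets came from the platform annotation of GEO and were checked by gene number against RefSeq (GRCh38.p14), and 0 symbols changed. Each gene was read from its brightest probe set by mean log2 intensity. Values below log2 of 5 were raised to it, the difference analogue 3 minus DMSO was taken, and 2-fold was the threshold. The steps were tested on simulated data. The rule for names was all 10 members with every probe set, the 4 largest floored differences of each of 6 pathway lists, and 11 further genes fixed by name. Genes outside it were named after their values were seen. The members, lists and floor were chosen with earlier results of these data known. Alternatives were floors of log2 3 and 1, no floor, the median of probe sets, leaving out the _s_at and _x_at probe sets, which can match several transcripts, quantile normalization, removal of a lowess trend (span 0.3, statsmodels 0.14.6) and a 1.5-fold threshold. Analyses used Python 3.11.15. The number of arrays limits the precision. Coordinates are given only for the promoter windows, from the RefSeq table of that build, since the deposited file holds none.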

Additional observations from a re-analysis of the deposited data

Results flagged for a closer look

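A further probe set (217714_x_at) reads STMN1 but was left out of the members, because the annotation gives it both STMN1 and a microRNA gene. It read 29.0 with analogue 3 and 19.4 with DMSO, so signal was higher than in the control, by 0.58 on the log2 scale. Both values lay below the floor of 32. The STMN1 probe set used in the report differed by 1.54 in the same direction. The gap between these values was wider than the 0.28 spread of 1 probe set at mean levels from 8 to 32. The size given for STMN1 therefore rests on 1 probe set.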

How the results depend on the processing

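With 1 array a group no replicate could be left out, so only processing choices were varied. No called member value reversed. Of 53 member values under alternatives, 49 moved by less than the 0.17 spread of 1 probe set, 4 moved by more, and 0 crossed to the other side of 0. Many of the 49 could not move, so these counts are no measure of stability. Lower floors leave unchanged a member whose brightest probe set reached the main floor on both arrays. The median of probe sets leaves unchanged a member with 1 measured probe set. STMN1, TPX2 and MAPRE1 have no value without _s_at and _x_at probe sets, so that loss is not counted as a move. The count of genes at least 2-fold higher was 175 of 5050 measured. It was 319 of 8523 with a floor of log2 3, 419 of 11158 with log2 1 and 475 of 19775 with none. Without probe sets ending in _s_at or _x_at it was 113 of 3079, and at 1.5-fold 478 of 5050. The count lower, 135, was 334, 586, 724, 89 and 461 in the same order, of the same numbers of genes. The floors and the probe sets used thus changed the number of genes measured along with the counts. Of members, 0 were at least 2-fold higher without _s_at and _x_at probe sets, and their median was 0.11 over 5 measured, because STMN1, TPX2 and MAPRE1 were measured by such probe sets alone. At 1.5-fold, 4 members were higher and 1 lower. The gap between mitotic and interphase medians, 0.99, was 1.31 with floors of log2 3, log2 1 and none, because TACC3 was then no longer held at the floor. It was 0.85 with CKAP5 counted as interphase and 0.86 with STMN1 counted as interphase, both chosen after seeing the data. Signal over background limits CLASP1, CLASP2, the DMSO value of TACC3 and the analogue 3 value of CLIP1.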
